A study of Mus musculus with 2 samples.

Results

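The thrombospondin family comprised 5 of the 21849 genes in the expression tables, Thbs1, Thbs2, Thbs3, Thbs4 and Comp, which were selected by gene symbol alone. All 5 had at least 1 count in both libraries. Costal-cartilage-derived stem cells (CDSCs) were taken from the rib cartilage of neonatal C57BL/6J mice of the CD45.1 or ZsGreen type, which were at most 1 week old. The cartilage was digested with type II collagenase, and cells negative for CD45 and positive for CD51 were sorted. The gate of both groups was thus set to leave out blood cells and to keep cells with the integrin subunit encoded by Itgav. Some cells with mast cell or haematopoietic markers were still present, as described below. Primary CDSCs and CDSCs expanded to passages 2 to 3 in serum-containing medium each gave 1 library for single-cell RNA sequencing. The comparison asks whether CDSCs differ after expansion in culture. The sources do not say how many mice were pooled or which of the CD45.1 and ZsGreen types a library came from, and culture, library preparation and sequencing run cannot be told apart with 1 library per group. No test was therefore possible, and every interval given here is at 95% and covers counting error only.

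Thrombospondins are large calcium-binding glycoproteins that cells secrete into the extracellular matrix, where they bind collagens, proteoglycans, growth factors and cell surface receptors. Thbs1 and Thbs2 form trimers and carry type 1 repeats, through which they bind CD36 on endothelial cells and inhibit angiogenesis, and thrombospondin-1 can activate latent TGF-β. Thbs3, Thbs4 and Comp (cartilage oligomeric matrix protein) form pentamers and lack these repeats. Comp is a classical matrix protein of cartilage and tendon, Thbs4 is known from tendon and muscle, and Thbs3 is expressed in the growing skeleton. The 2 structural groups order the results below, with the trimers first.

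Transcripts were counted from their 3′ ends by unique molecular identifiers (UMIs), 1 for each captured molecule, so no scaling by gene length was applied. After the filter, 11746 primary cells with 137148874 UMIs and 5338 cultured cells with 330129909 UMIs remained, at a median of 10026.5 and 56864.5 UMIs per cell. Of the cultured barcodes 50.6% failed the filter, 5336 of them with under 1000 UMIs, against 1.26% of the primary barcodes. The 2 libraries shared 32 barcode sequences. Levels are given in CPM, the UMIs of a gene divided by all UMIs of the cells and scaled to 1000000. The labels name the tissue as bone marrow, yet all 13 chondrocyte markers had 10 CPM or more in the primary library, with a summed level of 89400 CPM, whereas 3 of 13 did in the cultured library, with 1036 CPM. The 8 haematopoietic markers summed to 8.64 CPM in primary and 31.5 CPM in cultured CDSCs.

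The family split by its structural groups. Both trimer-forming genes had higher levels in cultured CDSCs and all 3 pentamer-forming genes had lower levels, each by more than 4-fold. For comparison, 9115 genes reached 10 CPM in 1 or both libraries. Of these genes, 10.6% were 4-fold or more higher in cultured CDSCs and 5.73% were 4-fold or more lower. Their median log2 ratio of cultured over primary CPM was 0.37, and 64.5% of them were higher in cultured CDSCs. The summed level of the 5 genes changed little by comparison, from 3507 CPM in primary to 2655 CPM in cultured CDSCs. Thbs1 and Thbs2 together made up 9.27% of the family's UMIs in primary CDSCs and 98.0% in cultured CDSCs. Comp alone made up 84.3% in primary CDSCs and 1.75% in cultured CDSCs. Other ways of scaling the libraries lowered every log2 ratio by up to 0.22, and none of them changed the direction of a family member.

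**Figure D1:**
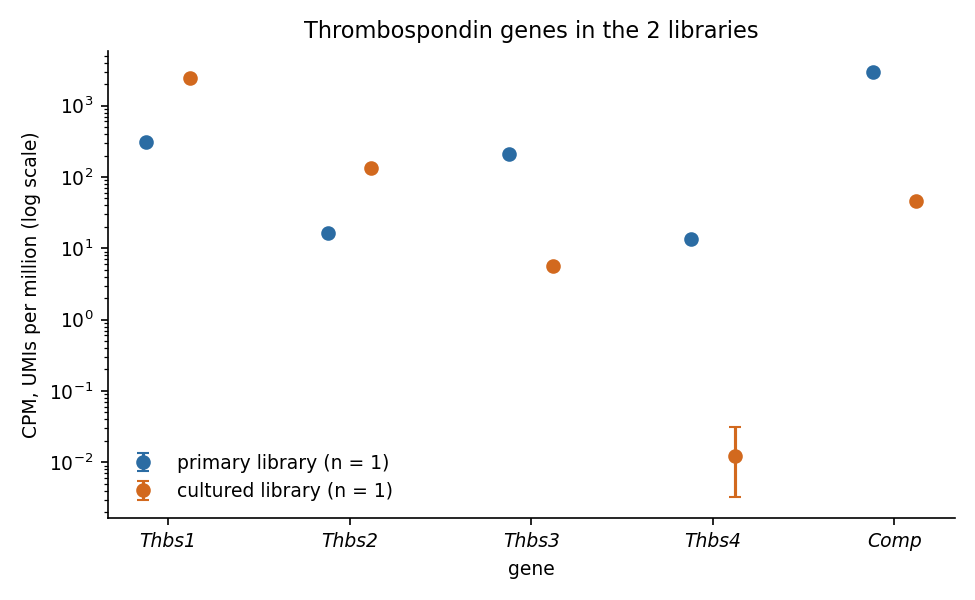
Level of each thrombospondin gene in the primary (blue) and cultured (orange) library, in CPM on a log scale, with exact Poisson intervals that are mostly smaller than the points. Thbs1 and Thbs2 lie higher in the cultured library, and Thbs3, Thbs4 and Comp lie lower, with Thbs4 at 0.0121 CPM.

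Thbs1, on chromosome 2 (chr2:118111876-118127133, plus strand, GRCm38), encodes thrombospondin-1. It had 42380 UMIs in the primary library, or 309.0 CPM, and 815567 UMIs in the cultured library, or 2470 CPM. The cultured level was thus 7.99-fold higher, with an interval of the log2 ratio from 2.98 to 3.01. Its place among all genes by level moved from 413 in primary to 60 in cultured CDSCs. The summed level of smooth muscle and pericyte markers differed in the same direction, with 355 CPM in primary and 2613 CPM in cultured CDSCs. Of these 8 markers, 5 reached 10 CPM in primary and 4 in cultured CDSCs and none was at 0. The sum therefore does not speak for every marker. Their part in the result was not tested.

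Thbs2, on chromosome 17 (chr17:14665500-14694235, minus strand), encodes thrombospondin-2, which regulates collagen fibril assembly. It had 2225 UMIs in the primary library, or 16.2 CPM, and 43614 UMIs in the cultured library, or 132 CPM. The cultured level was 8.14-fold higher, a log2 ratio of 3.03 with an interval from 2.96 to 3.09. The intervals of the Thbs1 and Thbs2 ratios overlapped, and Thbs1 was the more abundant transcript in both libraries. With the chondrocyte-like primary cells alone, however, the log2 ratios were 2.99 for Thbs1 and 3.64 for Thbs2.

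Thbs3, on chromosome 3 (chr3:89215180-89226837, plus strand), encodes a pentameric thrombospondin of skeletal tissue. It had 29131 UMIs in the primary library, or 212 CPM, and 1887 UMIs in the cultured library, or 5.72 CPM. The cultured level was 37.2-fold lower, a log2 ratio of -5.22 with an interval from -5.28 to -5.15. Mtx1, a mitochondrial import gene, overlaps Thbs3 on the opposite strand, and its own level was 47.7 CPM in primary and 32.4 CPM in cultured CDSCs, a log2 ratio of -0.56.

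Thbs4, on chromosome 13 (chr13:92751590-92794818, minus strand), encodes thrombospondin-4. It had 1830 UMIs in the primary library, or 13.3 CPM, and 4 UMIs in the cultured library, or 0.0121 CPM. The cultured level was 1101-fold lower, with an interval from 429 to 4046-fold that is wide because of the 4 UMIs. Only 15 of the 9115 genes had a lower ratio. Most primary Thbs4 UMIs belonged to the 289 cells of 1 cluster, described with the other clusters. Without these cells the primary level was 1.04 CPM and the log2 ratio was -6.42 instead of -10.10. The tenocyte markers differed in the same direction, from a summed 1870 CPM with 3 of 5 at 10 CPM or more to 134 CPM with 2 of 5, and Kera was at 0 in the cultured library. Fmod made up 1806 CPM of the primary sum, and Scx differed in the opposite direction, with 24.8 and 73.8 CPM. Their part in the result was not tested.

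Comp, on chromosome 8 (chr8:70373558-70382066, plus strand), encodes a pentamer that bridges collagen fibrils. It had 405399 UMIs in the primary library, or 2956 CPM, and 15351 UMIs in the cultured library, or 46.5 CPM. The cultured level was 63.6-fold lower, a log2 ratio of -5.99 with an interval from -6.01 to -5.97. Its place among all genes by level moved from 37 to 3705. The chondrocyte markers given above were lower as well, 13 of 13 with at least 10 CPM against 3 of 13 and none of them at 0, and their part in the result was not tested.

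**Figure D2:**
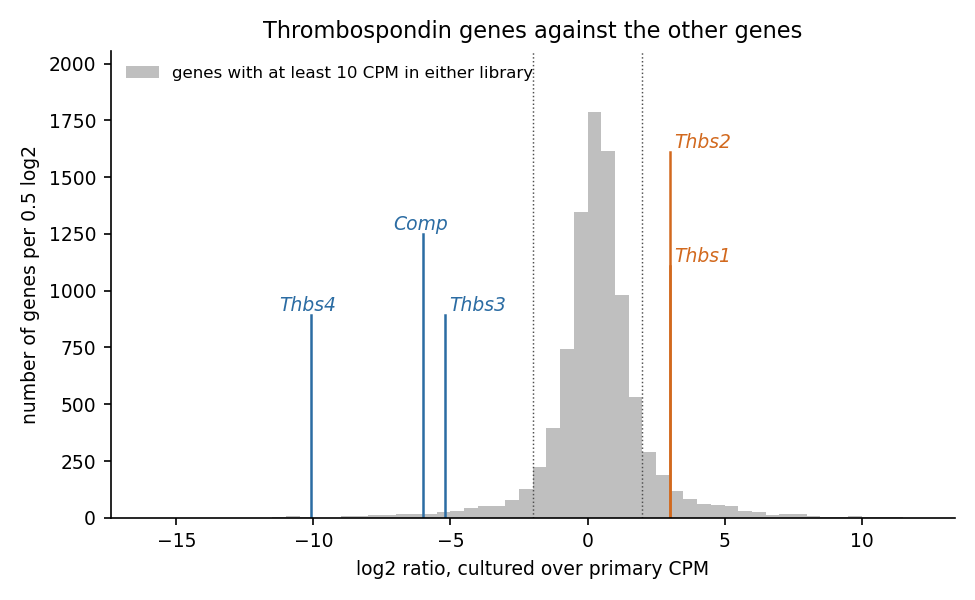
Number of genes by log2 ratio of cultured over primary CPM in steps of 0.5, for the 9115 genes that reached 10 CPM in 1 or both libraries, with the 5 thrombospondin genes as vertical lines whose height carries no value. The dotted lines mark 4-fold differences, and Thbs1 and Thbs2 lie beyond them on the right at 7.99 and 8.14-fold while Thbs3, Comp and Thbs4 lie on the left at log2 ratios of -5.22, -5.99 and -10.10.

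The transcripts could be told apart by sequence. In the GENCODE M21 annotation, the coding sequence of the reference transcript had 3513 bases for Thbs1, 3516 for Thbs2, 2868 for Thbs3, 2889 for Thbs4 and 2265 for Comp. Coding sequences of pairs were between 66.5% identical, for Thbs2 and Thbs4, and 74.1% identical, for Thbs4 and Comp. The 2 trimer genes were 70.0% identical. The longest run of bases that any pair of transcripts shared was 26.

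Of the 5 genes, 3 had a promoter in the RefSeq set on GRCm38.p6, and the 250 bases before their start sites are shown because Thbs2 and Thbs4 both had their highest level in the same primary cluster while Thbs2 and Thbs3 differed in opposite directions between the libraries. All 3 are written on the strand of the gene, and capitals mark the motifs that were found. Thbs2 spans chr17:14694263-14694512 on the minus strand, Thbs3 spans chr3:89214930-89215179 on the plus strand and Thbs4 spans chr13:92794819-92795068 on the minus strand.
Thbs2: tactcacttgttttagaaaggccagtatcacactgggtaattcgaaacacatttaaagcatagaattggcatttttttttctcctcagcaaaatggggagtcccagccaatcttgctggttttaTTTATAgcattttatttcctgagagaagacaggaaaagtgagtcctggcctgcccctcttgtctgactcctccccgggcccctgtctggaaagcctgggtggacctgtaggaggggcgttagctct
Thbs3: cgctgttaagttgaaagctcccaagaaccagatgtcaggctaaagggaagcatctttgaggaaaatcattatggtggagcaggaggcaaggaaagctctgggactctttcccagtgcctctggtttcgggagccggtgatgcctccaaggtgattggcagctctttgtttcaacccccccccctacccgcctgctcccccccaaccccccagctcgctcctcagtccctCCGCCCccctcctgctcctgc
Thbs4: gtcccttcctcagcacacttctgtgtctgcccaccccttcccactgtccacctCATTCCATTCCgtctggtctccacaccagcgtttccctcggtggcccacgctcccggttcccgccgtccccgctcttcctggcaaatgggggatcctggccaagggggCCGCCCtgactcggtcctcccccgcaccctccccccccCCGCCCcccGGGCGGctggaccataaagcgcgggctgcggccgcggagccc

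Both strands were searched for TATAAA (the TATA box), CCGCCC (the GC box of Sp factors), GGAATG (the element of TEAD factors), TGANTCA (the AP-1 element) and the CArG box of serum response factor. The GC content of the windows was 46.8% for Thbs2, 58.8% for Thbs3 and 70.8% for Thbs4. Thbs2 held 1 TATAAA, on the opposite strand 126 to 121 bases before the start. Thbs3 held 1 CCGCCC, 21 to 16 bases before the start. Thbs4 held 3 CCGCCC and 2 GGAATG, the latter on the opposite strand and overlapping by 1 base. Among 32851 promoter windows of the same length, 12.4% held TATAAA, 32.7% CCGCCC, 12.6% GGAATG, 6.75% TGANTCA and 1.47% the CArG box. A match is a match of letters only, and the last 2 motifs had none in these windows.

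The neighbouring protein-coding genes did not all follow the family members. Crtc1, a CREB coactivator that ends 289 bases from Comp, had 12.8 CPM in primary and 13.2 CPM in cultured CDSCs. Upf1, on the other side of Comp, had 29.5 and 24.7 CPM. Muc1, a mucin gene 2220 bases from Thbs3, had 4.78 and 0.442 CPM. Next to Thbs4, Serinc5 was lower in cultured CDSCs at a log2 ratio of -3.89, and Mtx3 had 4.10 and 4.54 CPM. Smoc2, a matricellular gene next to Thbs2, differed in the opposite direction to Thbs2, with 335 CPM in primary and 21.1 CPM in cultured CDSCs, and Wdr27 on the other side had a log2 ratio of 1.61. Beside Thbs1, Fsip1 had 0.262 and 1.97 CPM and Rasgrp1 had 0.321 and 1.95 CPM.

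Cells differed in depth between the libraries, so each cell was thinned to 5000 UMIs before cells with a transcript were counted. This left out 787 primary and 795 cultured cells and kept 10959 and 4543. Of the 742 cells of the shallow cultured cluster 4, described below, it kept 23. Thinned primary cells held Thbs1 in 68.8% of cases and cultured cells in 96.2% (83.8% and 99.4% without thinning), and its median per cell was 1 and 10 UMIs. For Thbs2 the shares were 5.65% of primary and 41.4% of cultured cells (12.1% and 79.3%). Thbs3 was found in 63.0% of primary cells and in 141 of the 4543 cultured cells (82.6% and 26.0%). Thbs4 was found in 1.53% of primary cells (2.84%) and in none of the cultured cells, 0 of 4543, which allows a share of up to 0.0660% if a count of 0 is taken to allow 3 cells (exact binomial limit 0.0812%), with 3 cells among the 5338 before thinning. Comp was found in 99.5% of primary and 15.9% of cultured cells (99.3% and 48.8%), at a median of 15 UMIs per primary cell with a 10th percentile of 6 and a 90th of 27.

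**Figure D3:**
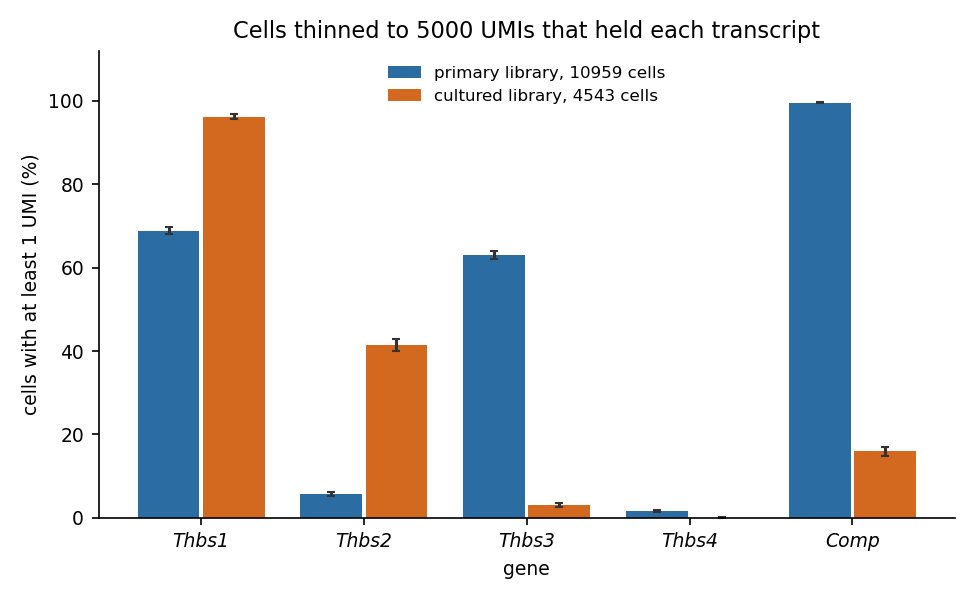
Share of cells, in percent, with at least 1 UMI of each thrombospondin gene after thinning to 5000 UMIs, in the primary (blue) and cultured (orange) library, with exact binomial intervals. Thbs1 and Thbs2 were found in more of the cultured cells and Thbs3, Thbs4 and Comp in fewer of them.

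Transcripts released from broken cells can enter any droplet, so these shares were set beside cells of other types. Within the primary library, a group of 26 cells with all 9 endothelial and 4 of 6 mast cell markers served for this, at a median of 9403 UMIs per cell. After thinning, 13 of its 18 cells had Comp, 6 had Thbs1, 4 had Thbs3 and 1 each had Thbs2 and Thbs4. Its Comp level was 1426 CPM, whereas sub-cluster 1 of the same cluster, described below, had 238 CPM. The level in this group is therefore not a background for all primary cells, and its source was not tested. Endothelial cells themselves can express Thbs1. For Thbs2 and Thbs4 the 1 cell of 18 is 5.56%, with an interval from 0.141 to 27.3% that holds the shares of both genes over the primary library. These 18 cells are thus too few to tell the shares of both genes from background. Their shares by cluster are given below. In the cultured library, the 9 haematopoietic-like cells, at a median of 35946 UMIs, served for this. Of these cells 7 had Thbs1 after thinning, 1 had Thbs2 and none had Thbs3, Thbs4 or Comp, where 0 of 9 allows a share of up to 33.3%. Whether these cells expressed Thbs1 themselves was not tested, so their Thbs1 cannot be taken as background.

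The family members also differed in how evenly they were spread over cells. In primary CDSCs before thinning, the 118 cells with the most UMIs of a gene, 1% of the library, held 3.88% of all Comp UMIs, 4.99% of Thbs3 and 6.23% of Thbs1. The same number of cells held 29.9% of Thbs2 UMIs and 75.6% of Thbs4 UMIs. Such shares also depend on the depth of the cells and on the level of the gene. After thinning, the variance of the UMIs over their mean was 10.9 for Thbs4, 4.75 for Comp, 2.29 for Thbs2, 1.72 for Thbs1 and 1.17 for Thbs3. In cultured CDSCs before thinning, the top 54 cells held 5.71% of Thbs1, 9.62% of Thbs2 and 20.7% of Comp UMIs. Thbs1 varied widely among cultured cells, with a 10th percentile of 2 and a 90th percentile of 26 UMIs after thinning.

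Primary CDSCs were clustered without the 5 genes among the variable genes, so that their levels by cluster were not built in. Of 10 clusters, 9 were chondrocyte-like by the abundance of chondrocyte markers, and cluster 9, with 289 cells led by the mast cell protease genes Tpsb2, Cma1 and Mcpt4, held markers of several cell types and was left unnamed. Comp UMIs were present in every cluster, from 1675 CPM in cluster 9 and 1787 CPM in cluster 3 (Aoc2, Acta2, Grem1) to 4134 CPM in cluster 4 (Hspa1a, Scgb1a1, Hspa1b), beside 1426 CPM in the 26 cells with endothelial and mast cell markers. Thbs3 lay between 196 and 285 CPM in the 10 clusters, and the intervals of clusters 1, 2, 3, 5 and 8 overlapped. Thbs1 lay between 189 and 417 CPM, with its lowest level in cluster 9. Thbs1 and Thbs3 both had their highest level in cluster 7, led by Slc35f1, Runx3 and Wnt5b, where 81.0% of thinned cells had Thbs1 and 74.9% had Thbs3.

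Thbs4 was found mainly outside the chondrocyte-like cells, and Thbs2 had its highest level there. Cluster 9 held 92.3% of all Thbs4 UMIs of the primary library, at 645 CPM against 0.334 to 5.26 CPM in the other clusters. It also held 35.8% of the Thbs2 UMIs, at 304 CPM against 3.50 to 23.7 CPM elsewhere. After thinning, 69.9% of its cells had Thbs4 and 66.1% had Thbs2. In the chondrocyte-like clusters 2.09 to 8.93% of cells had Thbs2 and at most 0.522% had Thbs4, and 0 of 750 cells in cluster 6, led by Bmp3, Tll1 and Specc1, had Thbs4, which allows a share of up to 0.400% by the same rule (exact binomial limit 0.491%), and the cluster held 3 Thbs4 UMIs before thinning. Among chondrocyte-like primary cells alone, the Thbs2 level was 10.6 CPM and the log2 ratio of cultured over primary was 3.64.

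**Figure D4:**
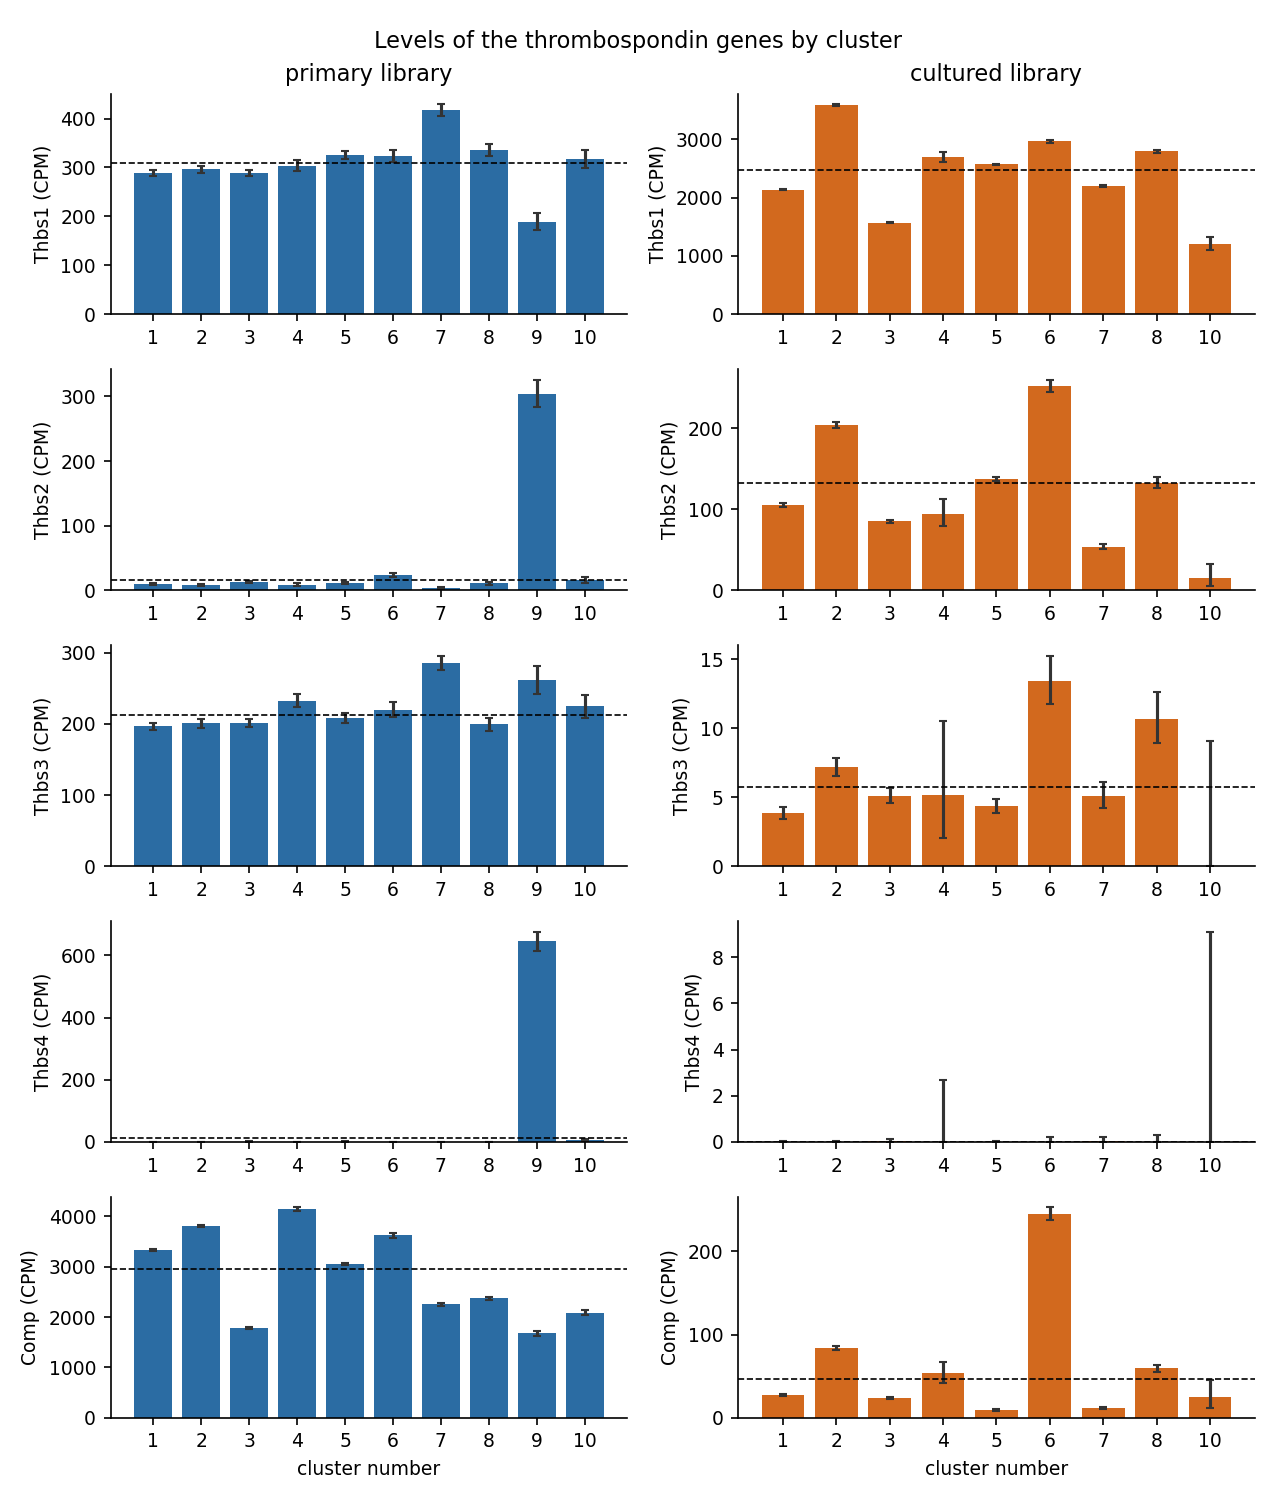
Level of each thrombospondin gene in CPM (vertical axes, which differ between panels) by cluster of the primary (left) and cultured (right) library, with exact Poisson intervals and the level of the whole library as a dashed line. Cultured cluster 9, with 26 cells of low depth, is not drawn, and Thbs4 stands out in primary cluster 9 at 645 CPM while Comp stands out in cultured cluster 6 at 245 CPM.

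The 289 cells of cluster 9 were clustered again, a step chosen after these values were seen. The 10 resulting sub-clusters held 13 to 46 cells each, so their shares of cells rest on few cells. Sub-cluster 1, with 46 cells led by Chodl, Cilp and Insc, had the highest Thbs4 level, 2684 CPM with an interval from 2458 to 2926 CPM, and Thbs4 was present in 43 of its 46 cells. It held 28.3% of all primary Thbs4 UMIs and had the lowest Comp level, 238 CPM. It carried 5 of 10 mesenchymal fibroblast and 3 of 5 tenocyte markers and was left unnamed.

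Sub-clusters 2, 4 and 5 were named mesenchymal fibroblast-like by the naming rule, each with 5 of 10 mesenchymal fibroblast markers such as Col1a1 and Postn. They also had 4 of 5 tenocyte markers, a larger part of a shorter list, and the tenocyte marker Kera led sub-clusters 2 and 4. The name therefore does not set them apart from tendon-like cells. Thbs4 reached 1169, 1105 and 1015 CPM in sub-clusters 2, 4 and 5, and these intervals overlapped. Thbs2 reached 711, 747 and 610 CPM, and these intervals overlapped as well. Thbs3 was also higher there than in the chondrocyte-like clusters, at 441, 512 and 400 CPM, while Thbs1 lay at 93.7, 118 and 77.4 CPM. In sub-cluster 8, 21 smooth muscle and pericyte-like cells with Rgs5, Higd1b and Abcc9 as leading genes, Thbs4 had 198 CPM and Thbs2 117 CPM. In sub-clusters 3, 7, 9 and 10, Thbs4 ranged from 248 to 728 CPM, with the highest of these in sub-cluster 9 (Ntrk3, Chodl, Cilp), and Thbs2 ranged from 80.4 to 617 CPM. The 26 endothelial and mast cell marker cells had 6.82 CPM of Thbs4, from 2 UMIs, and 13.6 CPM of Thbs2, from 4 UMIs. Thbs4 and Thbs2 thus differed between these groups of cells by more than counting error.

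**Figure D5:**
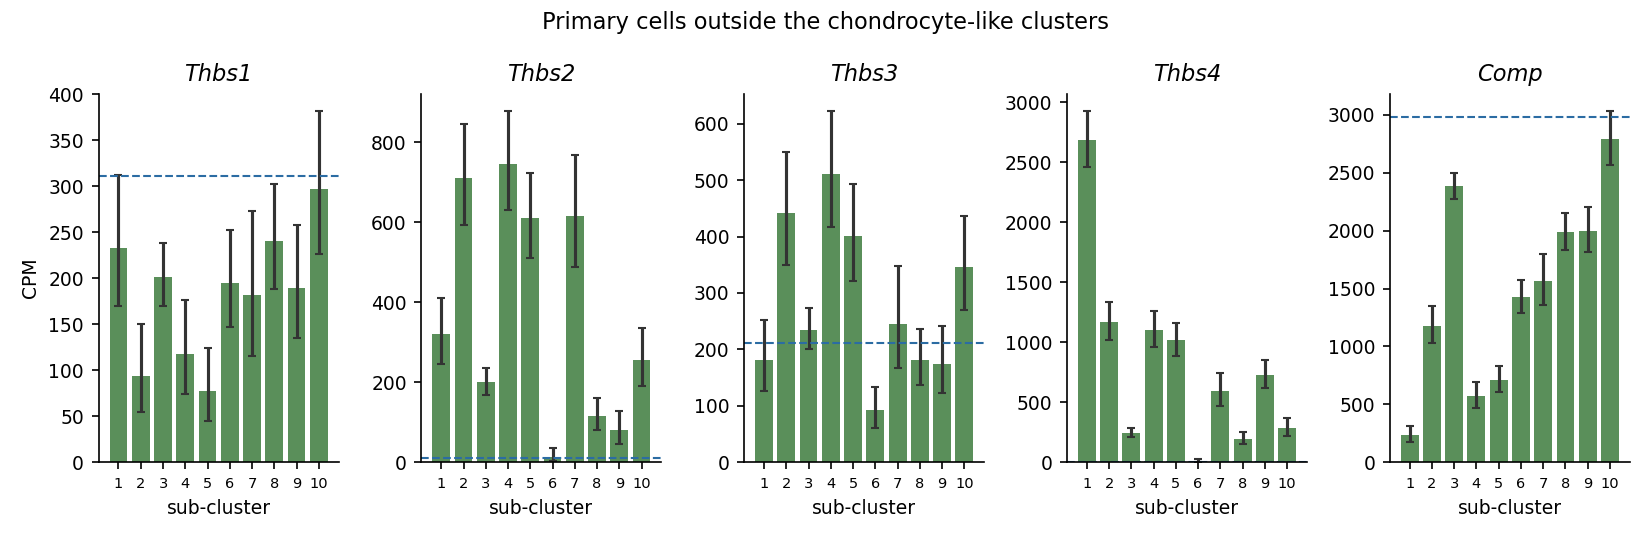
Level of each thrombospondin gene in CPM in the 10 sub-clusters of primary cluster 9, 289 cells in all, with exact Poisson intervals, and the level of the chondrocyte-like primary cells as a dashed line. Thbs4 is highest in sub-cluster 1 at 2684 CPM, where Comp is lowest at 238 CPM, and Thbs2 is highest in sub-cluster 4 at 747 CPM.

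Cultured CDSCs formed 10 clusters, of which 8 could not be named from markers. Cluster 4 was shallow, with 742 cells, 13.9% of the library, at a median of 1206.5 UMIs. Whether its barcodes were intact cells was not tested. Comp was uneven among the clusters. Cluster 6, with 358 cells led by the collagenase gene Mmp13 and by Csmd1 and Csmd3, had 245 CPM of Comp and held 28.2% of all cultured Comp UMIs, and 46.8% of its thinned cells had a Comp UMI. Cluster 2, led by Pparg, Gpc3 and Cyp26b1, had 84.2 CPM and held 36.2% of the UMIs. Among the large clusters the lowest level was 9.27 CPM, in cluster 5, led by Hmcn1, Angptl7 and Il1rl1. Even in cluster 6 the Comp level was below that of each of the 10 primary clusters, though not below the 238 CPM of the primary sub-cluster 1.

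Cluster 6 was also among the highest for Thbs1, Thbs2 and Thbs3, but these genes and Comp each had their lowest level in a different large cluster. Cluster 5, the lowest for Comp, had 137 CPM of Thbs2 beside 132 CPM in the whole library. Thbs2 was also highest in clusters 6 and 2 among those of more than 100 cells, at 252 and 204 CPM, and lowest in cluster 7 (Nr5a2, Barx1, Sfrp2) at 53.7 CPM. Thbs3 was highest in cluster 6 at 13.4 CPM and in the mesenchymal fibroblast-like cluster 8 at 10.7 CPM, whose intervals overlapped. Thbs1 was highest in cluster 2 at 3586 CPM, followed by cluster 6 at 2967 CPM. Among the large clusters Thbs1 was lowest in cluster 3, the dividing cells led by Aspm, Pbk and Knl1, at 1567 CPM, and this was still above its level in every primary cluster. Of the 4 Thbs4 UMIs, 3 were in cluster 3 and 1 in cluster 7. In the 9 haematopoietic-like cells, Thbs1 was at 1211 CPM, Thbs2 at 14.8 CPM and Comp at 24.7 CPM.

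Over single cells, most pairs of family members had low correlations. In primary CDSCs Pearson's r of the log2 UMIs was 0.47 for Thbs2 and Thbs4 over 10959 thinned cells, and 15.8% of cells with Thbs2 had Thbs4 against 0.677% of cells without it. All other pairs with a value in either library were under 0.2 in size, and pairs with Thbs4 had none in cultured CDSCs, where no thinned cell held it. These correlations describe cells of 1 library at equal depth.

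The genes most like each member were named where r reached 0.2. In primary CDSCs, Thbs2 went with Col14a1 at r of 0.42, Rbms3 at 0.41, Col3a1 at 0.41, Col5a2 at 0.39 and Igfbp4 at 0.38, of which Col14a1, Col3a1 and Col5a2 encode fibrillar or fibril-associated collagens. Primary Comp went with Dlk1 at 0.43, Mgp at 0.36, Wif1 at 0.35, Cytl1 at 0.35 and Klf2 at 0.30, of which Mgp inhibits cartilage mineralisation and Wif1 inhibits Wnt ligands. No gene reached 0.2 with primary Thbs1 or Thbs3. In cultured CDSCs over 4543 cells, Thbs1 went with Cemip at 0.32, Col5a2 at 0.30, Ahnak at 0.29 and Sulf1 at 0.29, where Cemip encodes a protein of hyaluronan breakdown. Cultured Thbs2 went with Ebf1 at 0.22 and Cdk14 at 0.21, and cultured Comp with Gpx3 at 0.30, Gdf10 at 0.27, Sned1 at 0.27, Mme at 0.26 and Hp at 0.26.

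Receptors and other cell surface partners of thrombospondins were higher in cultured CDSCs for 10 of 15 genes, a share close to the 64.5% of all tested genes, or for 8 of 15 under the DESeq2 scaling, where Itgb3 and Sdc1 turned lower. Of the 12 that reached 10 CPM, 9 were higher, with a median log2 ratio of 0.74 beside the 0.37 of all tested genes. The largest difference was in Itga3, an integrin subunit, with 1.33 CPM in primary and 35.3 CPM in cultured CDSCs. Its partner Itgb1 had 163 and 679 CPM. The endocytic receptor gene Lrp1 had a log2 ratio of 1.35, its partner Calr 1.24, the Thbs1 receptor gene Cd47 0.85, the calcium channel subunit gene Cacna2d1 0.79 and Itgb5 0.69. Smaller log2 ratios were found for Itgav at 0.24, Sdc1 at 0.21, Sdc4 at -0.25 and Itga5 at -0.29. The laminin-binding integrin gene Itga6 was lower in cultured CDSCs, with 80.6 and 26.1 CPM. Cd36 was low in both libraries, at 2.22 and 1.61 CPM.

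Matrix partners of COMP differed more, with 9 of 10 lower in cultured CDSCs, 8 of them by at least 4-fold, and a median log2 ratio of -9.80. Of all tested genes, 64.5% were higher and 5.73% were at least 4-fold lower. Most of the partner genes are also among the chondrocyte markers given above, so both results rest largely on the same genes. Of these partners, Col9a2 had 5537 CPM in primary and 0.772 CPM in cultured CDSCs. Col9a3, which encodes another chain of the cartilage collagen IX, had 7402 and 2.81 CPM. Fn1 (fibronectin) had 3285 and 2203 CPM. The exception was Col1a1, the main collagen of bone and tendon, with 149 CPM in primary and 705 CPM in cultured CDSCs.

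Proteases known to cleave COMP or thrombospondins were higher in cultured CDSCs for 4 of 5 genes, though 2 of these 4 stayed under 10 CPM in both libraries. Of the 3 that reached 10 CPM, 2 were higher, a share close to the 64.5% of all tested genes. Mmp13 had 0.153 CPM in primary and 22.4 CPM in cultured CDSCs, and Adamts1 had 22.9 and 135 CPM. Adamts12 was the exception, with 31.1 and 16.5 CPM.

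Among genes of latent TGF-β complexes, 5 of 7 were higher in cultured CDSCs, or 4 of 7 under both other scalings, where Tgfb3 turned lower, beside 64.5% of all tested genes. Ltbp1 had 8.65 CPM in primary and 968 CPM in cultured CDSCs, and Ltbp2 had 7.52 and 357 CPM. Ltbp4 had a log2 ratio of -0.92, and Tgfb1 had 44.0 and 32.0 CPM.

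Other matricellular genes differed in both directions, with 6 of 13 higher, 4 of them by at least 4-fold, and 7 of 13 at least 4-fold lower. Of the 12 that reached 10 CPM, 5 were higher, 3 of them by this margin, and 7 were lower by it. Beside this, 64.5% of all tested genes were higher, and 10.6% reached a 4-fold difference upwards and 5.73% downwards. Spp1 (osteopontin) had 53.1 CPM in primary and 6573 CPM in cultured CDSCs, and Ccn5 had a log2 ratio of 6.83. Sparcl1 had 283 and 1.24 CPM, and Tnn (tenascin-W) had 11.9 and 0.251 CPM. Of 8 tendon genes 1 was higher in cultured CDSCs, as was 1 of the 5 that reached 10 CPM, beside 64.5% of all tested genes. This was the tendon transcription factor gene Scx, with 24.8 and 73.8 CPM. Tnmd (tenomodulin) had a log2 ratio of -7.15, Fmod (fibromodulin) had 1806 and 55.6 CPM, and Col12a1 had a log2 ratio of -0.56. The median log2 ratio was -1.07 for all 8 tendon genes and -0.65 for the 5 that reached 10 CPM. The tenocyte markers given above are all part of this list.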

How the data were processed

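Single-cell 3′ libraries of primary and cultured CDSCs (1 each, 20000 viable cells prepared) were made with the Chromium 3′ v3.1 kit. The authors processed the reads with Cell Ranger 7.0.0 on GRCm38, per the file headers, and deposited whole-number UMI counts for each gene in each barcode, without normalisation. The annotation release was not given in the sources used here.

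A barcode needed 500 genes, 1000 UMIs and no more than 10% of UMIs from mitochondrial genes. Counts were summed per library and scaled to CPM, and log2 ratios had counts under 3 raised to 3. Intervals were exact Poisson for sums, Clopper-Pearson for shares and conditional for ratios, at 95%. The depth was 137148874 and 330129909 UMIs, and 3 counts corresponded to 0.0219 and 0.00909 CPM. Doublets were not removed in the values reported. Scrublet called 0 and 1 cells by its automatic threshold and so had not worked, and as an alternative the cells with the highest scores, 0.8% per 1000 barcodes (1118 and 461 cells), were left out. Thinning was without replacement to 5000 UMIs. Each library was clustered alone in scanpy 1.11.5 with leidenalg 0.10.2 (2000 variable genes, 10 components, 20 neighbours, resolution 0.5), and cluster 9 again with 10 neighbours and resolution 1. A cluster was named from 3 or more fixed markers that reached 50 CPM and were 4-fold above the other cells, at least 1 of them among its 10 leading genes, or as chondrocyte-like from their abundance. Scripts were tested on simulated data. Alternatives included edgeR 4.0.16 TMM factors and DESeq2 1.42.0 size factors, used for scaling only.

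The members, gene lists and markers were chosen with earlier results of these data known. Named genes are the 5 members, receptors with at least 10 CPM in either library, the 2 highest and 2 lowest log2 ratios of each other list among genes with at least 10 CPM, the 5 genes most correlated with a member (r of at least 0.2, each in at least 5% of cells), the nearest protein-coding genes, and the 3 leading genes of clusters. Some genes that this rule names are not reported here. Cd36 was added after its value was seen. Coordinates came from GENCODE M21 by gene identifier, which matched 21707 of 21849 identifiers, and promoters from RefSeq. Protein sequences were not analysed here. Cells are not replicates, so no test was run.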

Additional observations from a re-analysis of the deposited data

How the results depend on the processing

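In all 8 alternatives, Thbs1 and Thbs2 stayed higher and Thbs3, Thbs4 and Comp lower in cultured CDSCs. TMM scaling gave log2 ratios of 2.80 for Thbs1, 2.83 for Thbs2, -5.41 for Thbs3 and -6.19 for Comp. DESeq2 size factors gave 2.78, 2.81, -5.43 and -6.21 in the same order, and both scalings left the median of the tested genes at 0.17 and 0.15. Giving every cell equal weight, the ratios were 3.14, 2.83, -5.08 and -5.67. Leaving out presumed doublets gave 3.03 for Thbs1, and cells of at least 5000 UMIs gave 3.15 for Thbs2. Restricting primary cells to the chondrocyte-like clusters, an alternative added after the data were seen, gave 3.64 for Thbs2 and -6.42 for Thbs4. The other 24 of 40 ratios lay within the interval of the reported value. With genes of at least 1 CPM, 2575 instead of 1488 genes were at least 4-fold apart, because more genes were tested. The causes of the other shifts were not tested.

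Proteases higher in culture numbered 2 instead of 4 at 10 CPM or more, and Leiden resolution 1 moved 1 of 10 highest cluster levels, that of cultured Thbs4, by more than 1.5-fold. The Thbs4 level in cultured CDSCs rests on 4 UMIs in the deeper library, so the size of its ratio is imprecise. No paired analysis was possible because each group had 1 library, and for the same reason no replicate was left out.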

Other observations

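The dividing cells of both libraries are set beside the whole of their library, dividing cells included, as a description. In primary cluster 10, with 186 cells led by Pbk, Cenpf and Esco2, Comp had 2083 CPM against 2956 CPM in the library, Thbs1 had 317 against 309.0 CPM and Thbs3 had 225 against 212 CPM. In the dividing cluster 3 of the cultured library, Comp had 23.4 against 46.5 CPM, Thbs1 had 1567 against 2470 CPM and Thbs2 had 85.0 against 132 CPM. Thus Comp was below the library level among dividing cells of both libraries, whereas Thbs1 was below it in the cultured library only. This was not particular to dividing cells. Comp was also below it in primary cluster 3, at 1787 CPM, and in cultured cluster 5, at 9.27 CPM. Thbs1 was also below it in cultured cluster 1, at 2134 CPM. Other clusters lay above it, such as primary cluster 4 with 4134 CPM and cultured cluster 6 with 245 CPM of Comp. The difference between libraries was not tested.

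The cultured barcodes that failed the filter, 5460 with a median of 775 UMIs, held the family in a like order to the kept cells. Thbs1 had 3584 CPM, Thbs2 170 CPM, Comp 55.3 CPM and Thbs3 10.6 CPM in them, and each was above its level in the kept cells. Thbs4 had 1 UMI. In the 150 primary barcodes that failed, Comp had 3117 CPM and Thbs3 404 CPM, the latter 85 UMIs and above the 212 CPM of the kept cells.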
